A study of Drosophila melanogaster with 4 samples.

Results

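Unpaired-producing cells were defined as single cells of scrib mutant wing imaginal discs in which the summed level of upd1, upd2 and upd3 was at least 1 unique molecular identifier (UMI, 1 captured RNA molecule) per 10000 UMIs of the cell. The rule found 1113 such cells among 14456 cells. They numbered 401 of 3785 cells at day 4, 451 of 6457 at day 5, 158 of 3104 at day 8 and 103 of 1110 at day 14 after egg laying. They were set against the cells of the same library in which none of the 3 genes had a UMI, called upd-negative cells here, which numbered 2676, 5128, 2594 and 896 at days 4, 5, 8 and 14. The remaining 2049 cells had a summed level above 0 and below 1 and entered neither group. Because the 3 ligand genes chose the cells, their own values below are a description, and tests were run on other genes only.

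The libraries came from larvae of genotype scrib-/-FRT82B, from the parental strain scrib[1]FRT82B/TM6B, raised at 25 degrees. scrib encodes a scaffold protein of the basolateral membrane that keeps the disc epithelium polarized, and discs without it overgrow into tumors during a prolonged larval life. Discs were dissociated with trypsin, and 1 library per age was made with the 10x method, so no age had a replicate. No library of non-mutant discs was analysed here, so every group below carries the mutation.

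Unpaired proteins are secreted cytokines. They bind the receptor Domeless (dome), which acts through the Janus kinase Hopscotch (hop) and the transcription factor Stat92E, and targets such as Socs36E feed back on the pathway. In imaginal discs the ligands are induced by wounding and by loss of polarity, often downstream of Jun kinase (JNK), and they promote growth and regeneration. The 3 genes lie side by side on chromosome X. In the Ensembl release 115 annotation of BDGP6, upd2 spans 18240654 to 18243284 on the minus strand, upd3 spans 18277233 to 18284596 on the plus strand and upd1 spans 18305354 to 18309291 on the minus strand. The stretch that holds all 3 is 68.6 kb long, and the other genes annotated within it are CG15059 and 3 long noncoding RNAs. No source used here names the genome build behind the deposited values.

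The median cell of a library had 18298 to 23326 UMIs and 2780 to 3176 genes. Unpaired-producing cells were deeper than upd-negative cells in the early libraries. Their median depth was 30750 UMIs, against 21244 in upd-negative cells, at day 4, and 27423 against 17885 at day 5. The gap was smaller at day 8, at 20441 against 17821 UMIs, and smallest at day 14, at 19346 against 19008. A deeper cell shows more genes, so shares of cells are also given after each cell was thinned to 12000 UMIs, which left out 355 cells at day 4 and 953 at day 5. Libraries shared between 5 and 34 cell barcodes. At the threshold, 88, 113, 36 and 28 members lay within 0.25 above the threshold at days 4, 5, 8 and 14, and 130, 169, 66 and 15 cells lay within 0.25 below it. A single UMI was enough for membership in 7 cells at day 4, in 23 at day 5 and in none later.

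Unpaired-producing cells made up 10.6% of cells at day 4 (95% exact binomial interval 9.63% to 11.6%), 6.98% at day 5 (6.37% to 7.63%), 5.09% at day 8 (4.34% to 5.92%) and 9.28% at day 14 (7.64% to 11.1%). The share was thus lowest at day 8, and the intervals of days 4 and 14 overlapped. In a cell thinned to 12000 UMIs, 1 UMI is below the threshold, so a thinned member needed at least 2 UMIs. After thinning the shares were 9.30%, 6.61%, 4.32% and 7.30% at the same ages, in the same order of ages. These intervals and all others here cover counting error only, and with 1 library per age the age and the library cannot be told apart. Myoblast-like cells, the muscle precursors under the disc, served as a gauge of background UMIs, because they should lack these ligands. They held an upd1 UMI in 2.47%, 1.52% and 0.952% of cells at days 4, 5 and 8, against 25.2%, 16.9% and 13.9% of the other cells. At day 14 the shares were 14.3% of myoblast-like cells, or 6 of 42 (5.43% to 28.5%), and 15.1% of the other cells. A single upd1 UMI at day 14 was therefore not read as a sign of expression. In the same myoblast-like cells upd2 was found in 0 of 42 (0% to 8.41%), against 5.34% of the other cells. For upd3 the shares were 2.38% (0.0603% to 12.6%) and 6.37%. Whether the UMIs in myoblast-like cells came from free RNA was not tested. Median depths were 15660 to 17532 UMIs in myoblast-like cells and 18489 to 23714 in the others. At the membership threshold 0 of 162, 0 of 394 and 1 of 210 myoblast-like cells were counted as Unpaired-producing at days 4, 5 and 8. At day 14 it was 2 of 42, or 4.76% (0.582% to 16.2%), an interval that holds the 9.28% of all cells at that age.

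**Figure D1:**
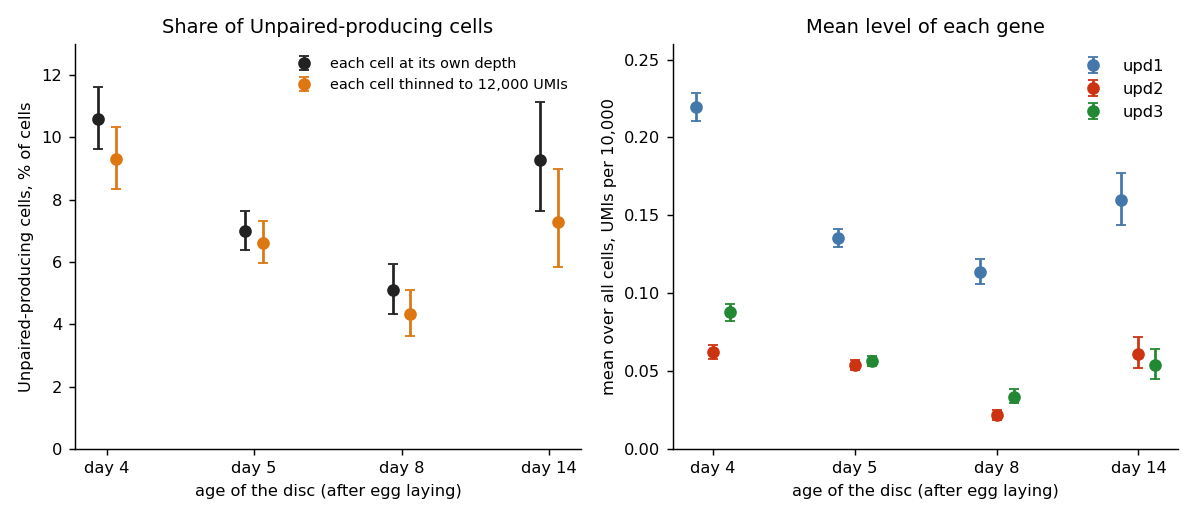
Left, percent of cells that were Unpaired-producing at each age, at the cells' own depth and after thinning to 12000 UMIs, with 95% exact binomial intervals. Right, mean level of upd1, upd2 and upd3 over all cells of a library in UMIs per 10000, with 95% Poisson intervals; all 3 genes were lowest at day 8.

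The upd1 gene was the most widely detected of the 3. Its mean over all cells was 0.219, 0.135, 0.114 and 0.160 UMIs per 10000 at days 4, 5, 8 and 14. The mean of upd2 was 0.0621, 0.0538, 0.0215 and 0.0611 in the same order, and that of upd3 was 0.0876, 0.0563, 0.0335 and 0.0539. All 3 genes were lowest at day 8 and each had a day 14 interval above that of day 8. These Poisson intervals treat UMIs as independent and leave out the spread between cells, so they are too narrow where a few cells hold most UMIs. Unpaired-producing cells held between 57.7% and 76.5% of all upd1 UMIs of a library, between 79.2% and 87.6% of upd2 UMIs and between 60.1% and 77.5% of upd3 UMIs. Within these cells upd1 was detected in 95.8%, 90.9%, 88.6% and 90.3% at the 4 ages. Detection of upd2 was 47.4%, 55.4%, 24.7% and 35.9%, and detection of upd3 was 70.3%, 63.6%, 48.1% and 39.8%. The summed level of the 3 genes in the highest cell was 16.0 per 10000 at day 4, 11.8 at day 5, 10.8 at day 8 and 14.9 at day 14, with medians of 1.95, 1.85, 1.65 and 1.69.

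Detection of one ligand went with detection of another. At day 4, upd3 was detected in 63.3% of cells with upd2, against 9.43% of cells without upd2. The corresponding shares were 54.7% against 5.51% at day 5, 37.5% against 4.45% at day 8 and 43.9% against 4.18% at day 14. After thinning, which sets all cells to 1 depth, they were 46.0% against 6.04%, 40.0% against 4.03%, 31.1% against 2.84% and 35.6% against 2.82%. The shares stayed apart at equal depth in each library. Because members were chosen on the sum of the 3 genes, these shares were taken over all cells of a library.

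The make-up of the Unpaired-producing cells differed between the early and the late libraries. Cells with upd1 as the only ligand were 19.95% of members at day 4 and 21.7% at day 5, but 43.0% at day 8 and 44.7% at day 14. Cells with all 3 ligands were 35.4%, 36.1%, 10.1% and 13.6% at the same ages. At least 2 ligands were detected in 78.1%, 73.8%, 51.3% and 52.4% of members, and in 60.8%, 60.4%, 42.5% and 49.4% after thinning. Cells with all 3 were 16.9%, 19.5%, 6.72% and 9.88% after thinning. The early excess was smaller after thinning. For at least 2 ligands the thinned day 14 interval of 38.1% to 60.7% overlapped that of day 4, at 55.2% to 66.2%. A thinned cell needed at least 2 UMIs to be a member, so each one with 2 or 3 ligands was a member by the rule. Of thinned cells with upd1 alone, only 108 of 384 were members at day 4. The thinned shares are thus partly set by the rule, and no conclusion on make-up at equal depth is drawn from them. A gene counts as detected here at 1 UMI, also upd1 at day 14, where a single upd1 UMI was not read as a sign of expression above. Members without upd1 were few, at 17, 41, 18 and 10 cells.

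**Figure D2:**
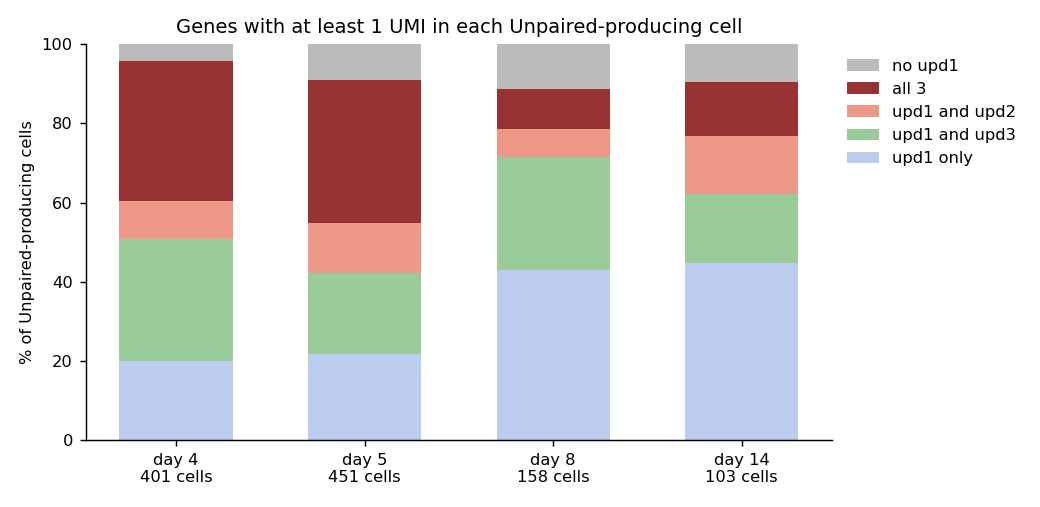
Percent of Unpaired-producing cells at each age by which of the 3 genes had at least 1 UMI at the cells' own depth. The class with all 3 genes took 35.4% and 36.1% of the cells at days 4 and 5, and 10.1% and 13.6% at days 8 and 14.

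Unpaired-producing cells lay mostly in a few clusters of disc cells, which were made in each library without the 3 ligand genes. At days 4 and 5 a cluster led by CG13117, mtg, Pvf1, scaf and Drip held 45.1% and 52.1% of them, and they were 31.6% and 25.5% of its cells. The like cluster at day 8 held 14.6%, and that at day 14 held 4.85%. Members were 5.36% of its cells at day 8, against 5.09% of all cells, and 2.76% at day 14, against 9.28% of all cells. At day 8 the members were mainly in clusters led by CG17278 and nub (31.6%) and by Mlc2 and CG7059 (29.7%). At day 14 they were mainly in clusters led by CG7059 and Ilp8 (41.7%) and by bnl and ImpL3 (28.2%). Summed levels of the disc epithelium markers were 10.4, 10.4, 12.5 and 15.4 per 10000 in Unpaired-producing cells, against 10.7, 10.4, 12.98 and 17.7 in upd-negative cells, so the cells carried the markers of the labelled tissue. The 7 myoblast markers summed to between 0.0988 and 0.296 in Unpaired-producing cells and between 0.508 and 0.699 in upd-negative cells. The myoblast determinant twi was at 0 in members at day 4. In members with a summed ligand level of 1 to 2 it had 1, 1 and 4 UMIs at days 5, 8 and 14. Only 1 or 2 of 8 hemocyte markers were listed in a library, with summed levels of 0.122 to 0.187 in members and 0.0922 to 0.166 in upd-negative cells. Tracheal markers summed to 5.68 to 8.59 in Unpaired-producing cells, against 11.9 to 14.9 in upd-negative cells. Among those listed, only trh was at 0 in members at day 4 and only btl at days 5 and 8. None was at 0 at day 14. Glial markers summed to 0.791 to 1.28 against 0.662 to 1.04. The part of tracheal and glial cells in the results below was not tested.

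To ask what else distinguished the cells, mean levels in Unpaired-producing cells and in upd-negative cells were compared over the 4 libraries, each library serving as its own pair (limma, Benjamini-Hochberg adjusted p under 0.05). Differences are log2 ratios of mean UMIs per 10000 with a pseudocount of 0.05, with their standard error. Of 3814 genes tested, 352 were higher (9.23%) and 265 were lower (6.95%) in Unpaired-producing cells. After thinning of each cell to 12000 UMIs the counts were 166 and 157. Scaling without ribosomal protein genes gave 224 higher and 401 lower. Ribosomal protein genes took a median of 46.1% of UMIs in Unpaired-producing cells, against 51.0% in upd-negative cells, at day 4, and 44.7% against 49.8% at day 5. The gap was small at day 8, at 47.8% against 48.6%, and ran the other way at day 14, at 42.3% against 41.4%. The counts rested on the full set of libraries. Without day 4 no gene passed in either direction, although 867 had an unadjusted p under 0.05, without day 5 the counts were 16 and 33, and without day 8 they were 2 (CG1299 and ImpL2) and 0. Of the 617 genes called, all 613 that could be tested without day 4 had the same direction there. The remaining libraries had also taken part in the calls, so the shared direction is not independent evidence. Standardising the upd-negative cells to the cluster make-up of the members left 134 higher and 163 lower.

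The largest called difference was in Ilp8, a relaxin-like hormone secreted by damaged discs that delays metamorphosis. Its mean was 6.54 UMIs per 10000 in Unpaired-producing cells, against 0.152 in upd-negative cells, at day 4. The values were 4.94 against 0.127 at day 5, 6.06 against 0.454 at day 8 and 15.7 against 1.41 at day 14. The groups were far apart in each library, with a log2 difference of 4.22 ± 0.31 (adjusted p = 0.00832). It was 3.95 without day 4 (adjusted p = 0.0719) and 4.43 without day 8 (adjusted p = 0.0641).

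Other secreted factors rose with it. ImpL2, a binding protein that antagonises insulin-like peptides, had 11.6, 13.7, 20.97 and 62.1 per 10000 in Unpaired-producing cells at days 4, 5, 8 and 14, against 4.25, 4.97, 6.73 and 24.9 in upd-negative cells. Its log2 difference of 1.46 ± 0.06 lay between 1.32 and 1.63 in each library (adjusted p = 0.00339), and was 0.81 against upd-negative cells standardised to the members' clusters (adjusted p = 0.0227). The Hedgehog ligand hh rose by 0.80 ± 0.09 (adjusted p = 0.0137) and the neuregulin-like EGF receptor ligand vn by 0.69 ± 0.13 (adjusted p = 0.0293). In all, 4 of the 11 secreted tumor factors tested were higher and none was lower, against 9.23% of all genes called higher, with a median of 0.69 against 0.04 for all genes. The fibroblast growth factor bnl differed by 1.79 ± 0.66 and was not called (adjusted p = 0.113). Its levels were 0.0675 against 0.0367 at day 4 and 0.143 against 0.0891 at day 5, but 0.961 against 0.194 at day 8 and 10.6 against 0.525 at day 14, so the gap was wide only in the later libraries. The BMP-binding proteins cv-2 and sog were also higher, by 1.07 ± 0.19 (adjusted p = 0.0243) and 0.56 ± 0.13 (adjusted p = 0.045), while the BMP receptor gene tkv fell by 0.31 ± 0.05 (adjusted p = 0.0246). These were the 3 called of 11 BMP and activin pathway genes tested, in a fit that called 16.2% of all genes in either direction.

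**Figure D3:**
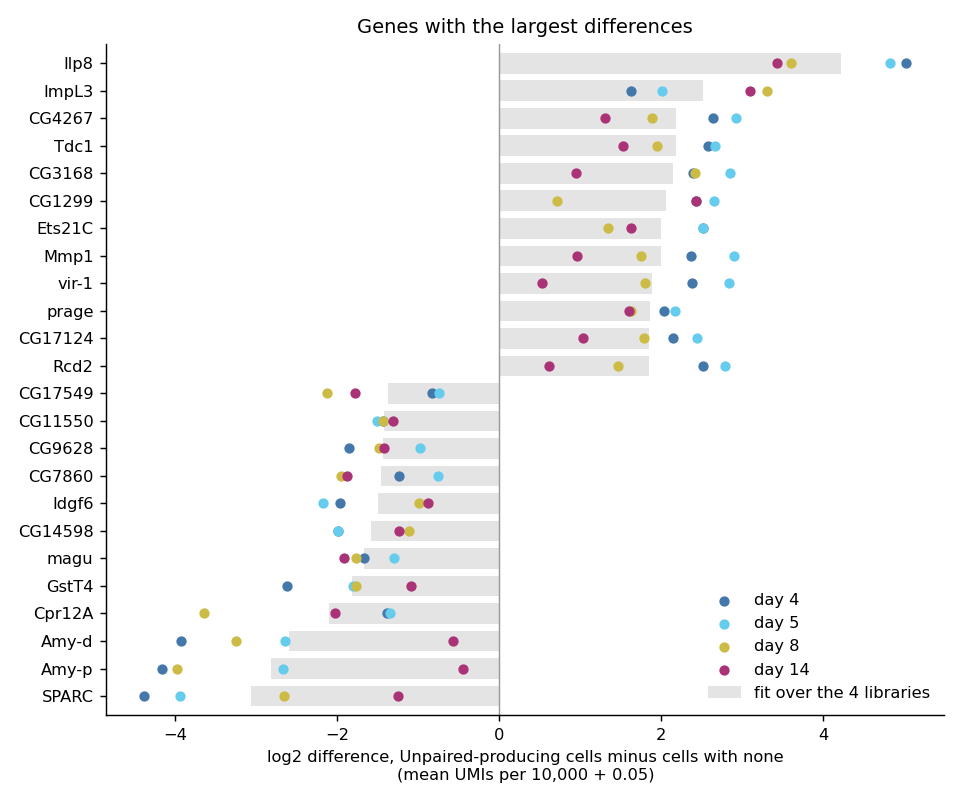
Log2 difference between Unpaired-producing and upd-negative cells for the 12 genes with the largest significant difference in each direction, all with the same sign in each of the 4 libraries. Grey bars are the fit over the libraries and points are single libraries; Ilp8 and SPARC are at the ends, at 4.22 and -3.06.

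Genes of the Unpaired pathway itself were then examined. The receptor dome had 0.432, 0.378, 0.459 and 0.588 per 10000 in Unpaired-producing cells at days 4, 5, 8 and 14, against 0.383, 0.343, 0.350 and 0.467 in upd-negative cells, a difference of 0.23 ± 0.06 that was not called (adjusted p = 0.0584). Stat92E differed by 0.02 ± 0.05 (adjusted p = 0.849), and hop was below the filter on low values. Of 6 inhibitors tested, Socs36E was the 1 called. It had 1.29, 1.25, 1.31 and 2.26 per 10000 in Unpaired-producing cells, against 0.777, 0.602, 0.597 and 0.826 in upd-negative cells, so the groups did not overlap (1.04 ± 0.12, adjusted p = 0.0137). The phosphatase gene Ptp61F, a negative regulator, differed by 0.49 ± 0.14 and was not called (adjusted p = 0.0704). The antiviral response gene vir-1, which is induced through JAK/STAT signaling on infection, had 10.9, 16.6, 6.53 and 2.90 against 2.05, 2.296, 1.84 and 2.0 (1.88 ± 0.37, adjusted p = 0.0303), and the 2 groups were closest at day 14. The zinc finger gene chinmo was lower, by -0.36 ± 0.08 (adjusted p = 0.0405). Of the 5 genes tested from the target list, 2 were thus higher and 1 lower, and Socs36E counts in both this list and that of inhibitors. Of all genes, 9.23% were called higher and 6.95% lower.

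Targets of JNK and of wounding were then examined. Of 10 tested, 4 rose, namely Ilp8, the matrix metalloproteinase gene Mmp1, the ETS transcription factor gene Ets21C and the stress gene Gadd45, and none fell, against 9.23% of all genes called higher. Mmp1 had 3.99, 6.04, 2.15 and 1.70 per 10000 in Unpaired-producing cells at days 4, 5, 8 and 14, against 0.730, 0.769, 0.605 and 0.845 in upd-negative cells (1.995 ± 0.31, adjusted p = 0.0207), and against the standardised cells the difference was 1.29 (adjusted p = 0.0204). Ets21C rose by 2.001 ± 0.23 (adjusted p = 0.0137) and Gadd45 by 0.51 ± 0.08 (adjusted p = 0.0224). The JNK phosphatase gene puc had 1.04 and 1.05 against 0.312 and 0.316 at days 4 and 5, but 0.528 against 0.316 at day 8 and 0.684 against 0.649 at day 14, and it was not called (adjusted p = 0.0683). The list median was 1.26 and 1.64 at days 4 and 5, and 0.44 and 0.17 at days 8 and 14, so the early libraries were further apart. None of 10 core components of the JNK pathway was called. Cells with at least 5 Mmp1 UMIs per 10000 were 27.7%, 42.4%, 14.6% and 10.7% of Unpaired-producing cells, against 3.36%, 3.80%, 2.04% and 2.34% of upd-negative cells.

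The lactate dehydrogenase gene ImpL3 had 0.192, 0.457, 12.5 and 43.5 per 10000 in Unpaired-producing cells, against 0.0281, 0.0759, 1.21 and 5.04 in upd-negative cells (2.51 ± 0.31, adjusted p = 0.014). Of 12 glycolysis genes tested, ImpL3 and PyK rose, PyK by only 0.26 ± 0.06 (adjusted p = 0.042), and none fell, a share near the 9.23% of all genes called higher. The median of the list was -0.07 and -0.14 at days 4 and 5, and 0.48 and 1.04 at days 8 and 14. The chaperone gene Hsc70-3 rose by 0.55 ± 0.05 (adjusted p = 0.00897), whereas Hsp70Bc, one of several close copies, was lower by -0.37 ± 0.08 (adjusted p = 0.04), and the 10 heat shock genes tested had a median of -0.06. The stress transcription factor gene crc, the fly ATF4, rose by 0.35 ± 0.06 (adjusted p = 0.0235). Glutathione transferase genes GstD1 and GstD3 rose by 0.53 ± 0.10 and 0.88 ± 0.10 (adjusted p = 0.0255 and 0.0137). GstD1 differed by -0.11 when only members without upd2 were used (adjusted p = 0.583). Both belong to a family of close copies, so reads could be split between its members.

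The remaining named genes that rose have less defined roles. Tdc1, a tyrosine decarboxylase gene, rose by 2.18 ± 0.21 (adjusted p = 0.0122), and CG4267 by 2.19 ± 0.28 (adjusted p = 0.015). Also among the 12 largest were CG3168, CG1299, prage, CG17124 and Rcd2, at 1.85 to 2.15. All had lower means in upd-negative cells of each library. Rcd2 had 0.883 against 0.113 at day 4, but at day 14 it had 0.244 in Unpaired-producing cells against 0.141 in upd-negative cells.

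Most matrix genes tested were lower in Unpaired-producing cells, but fewer of them were called once myoblast-like clusters were left out. SPARC, which encodes a collagen-binding protein of the basement membrane, had 0.0237, 0.0802, 0.327 and 0.265 per 10000 in Unpaired-producing cells, against 1.48, 1.96, 2.34 and 0.701 in upd-negative cells (-3.06 ± 0.52, adjusted p = 0.0239). The laminin genes LanA and LanB1 fell by 0.72 ± 0.08 and 0.53 ± 0.05 (adjusted p = 0.0137 and 0.0135), and the perlecan gene trol fell by 0.45 ± 0.07 (adjusted p = 0.0208). Mmp1 was the other matrix gene tested, so the list held 4 lower and 1 higher, against 6.95% and 9.23% of all genes. Myoblasts also express SPARC, and 3.91% to 7.90% of upd-negative cells were in myoblast-like clusters. Without those clusters 375 genes were higher and 294 lower, SPARC fell below the filter and was not tested, and trol was no longer called, at -0.13 (adjusted p = 0.372). LanA and LanB1 were still called, at -0.56 and -0.38 (adjusted p = 0.0271 and 0.0278). The secreted proteins magu and Idgf6 fell by 1.67 ± 0.11 and 1.502 ± 0.25 (adjusted p = 0.00826 and 0.0235).

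Amylase genes Amy-p and Amy-d were lower by -2.81 ± 0.64 and -2.60 ± 0.54 (adjusted p = 0.041 and 0.0349). They are near-identical copies, and by day 14 both groups had almost none, with Amy-p at 0.0106 in Unpaired-producing cells and 0.0324 in upd-negative cells. The cuticle protein gene Cpr12A fell by 2.10 ± 0.40 (adjusted p = 0.0293) and the glutathione transferase gene GstT4 by 1.82 ± 0.24 (adjusted p = 0.015). CG14598, CG7860, CG9628, CG11550 and CG17549 fell by 1.37 to 1.58. The 3 chitin-related genes of the tracheal list, Gasp, verm and serp, were all called lower, with a list median of -0.72, while the glial barrier gene moody was higher by 1.07 ± 0.25 (adjusted p = 0.0449).

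Position genes of the disc also differed. The gene caup, an Iroquois gene of the notum, had 0.0227, 0.0643, 0.224 and 0.650 per 10000 in Unpaired-producing cells, against 0.122, 0.190, 0.789 and 1.79 in upd-negative cells (-1.33 ± 0.10, adjusted p = 0.00863). The hinge and notum gene hth and the wing gene vg fell by 0.37 ± 0.07 and 0.51 ± 0.05 (adjusted p = 0.0246 and 0.0137). Of the 4 notum, 4 hinge and 6 pouch genes tested, caup, hth and vg were the 1 gene of each list called. The Wnt receptor gene fz2 fell by 0.72 ± 0.10 (adjusted p = 0.0163), whereas the Wnt inhibitor gene nkd rose by 0.54 ± 0.08 (adjusted p = 0.0205). That is 3 lower calls among 14 genes, against 6.95% of all genes, and each of the 3 lists also held genes with a positive difference. The gene hh was the only posterior gene above the filter.

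Within the Unpaired-producing cells, those with upd2 were set against those without it. The planned comparison of upd3 cells with upd1 cells could not be fitted because only day 5 had 20 cells in each class, and the split by upd2 was chosen after the values had been seen. There were 190, 250, 39 and 37 cells with upd2 and 211, 201, 119 and 66 without at days 4, 5, 8 and 14. Of 3820 genes tested, 584 were higher (15.3%) and 833 lower (21.8%) in the cells with upd2 (limma, adjusted p under 0.05). With ribosomal protein genes left out of the scaling the counts were 593 and 1386. Leaving out a library gave 321 to 706 higher and 311 to 987 lower. The count without day 5 was 321 higher and 311 lower, and without day 4 or day 8 it was 502 or 436 lower. Each call that could be tested had the same direction in those 4 fits, which share libraries with the full fit and are no independent check. Cells with upd2 were deeper in each library, with medians of 34147 against 28412 UMIs at day 4, 31266 against 20157 at day 5, 25507 against 19143 at day 8 and 20498 against 18496 at day 14. Among cells of 15000 to 30000 UMIs, 459 genes were higher and 551 lower. Among cells with upd3 the counts were 439 and 547, and among cells with a summed level below 2, where only days 4 and 5 had enough cells, they were 590 and 598. The 2 classes also differed in cluster, as given below, and no fit by upd2 was standardised for cluster.

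JNK and wound targets stood out in the cells with upd2, with 9 of 10 higher, none lower and a median of 1.36, against -0.09 for all genes. Of all genes, 15.3% were called higher. Mmp1 had 6.58, 9.18, 6.57 and 3.40 per 10000 in cells with upd2 at days 4, 5, 8 and 14, against 1.67, 2.13, 0.704 and 0.740 in cells without it, with no overlap (2.32 ± 0.20, adjusted p = 0.00208). In upd-negative cells Mmp1 was at 0.605 to 0.845, so at days 8 and 14 the cells without upd2 lay within or near the upd-negative range. Cells with at least 5 Mmp1 UMIs per 10000 were 47.9%, 66%, 51.3% and 24.3% of cells with upd2, against 9.48%, 12.9%, 2.52% and 3.03% of cells without it. puc had 1.60, 1.54, 1.41 and 1.11 against 0.531, 0.445, 0.238 and 0.442 (1.69 ± 0.17, adjusted p = 0.00255). The platelet-derived growth factor-like ligands Pvf1 and Pvf2 rose by 1.97 ± 0.22 and 1.81 ± 0.13 (adjusted p = 0.00281 and 0.00188), and scaf, a serine protease homologue, by 2.29 ± 0.21 (adjusted p = 0.00214). Of 10 core pathway genes 5 rose, among them the Jun gene Jra at 1.07 ± 0.09, the Fos gene kay at 1.18 ± 0.21, the kinase gene msn at 1.07 ± 0.11 and the tumor necrosis factor receptor gene grnd at 0.57 ± 0.10 (adjusted p = 0.00208, 0.00727, 0.00266 and 0.00639).

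Ilp8 was above the upd-negative level in both classes. It had 9.30, 6.82, 14.1 and 23.5 per 10000 in cells with upd2, against 4.06, 2.61, 3.41 and 11.3 in cells without it (1.41 ± 0.16, adjusted p = 0.00281). Upd-negative cells had 0.152, 0.127, 0.454 and 1.41, so each value without upd2 was above all upd-negative levels. When members with upd2 alone were set against upd-negative cells, 7 of 10 JNK and wound targets tested were higher, with a median of 1.502, against 13.5% of all genes called higher. When members without upd2 alone were used, 1 of 8 was higher and 1 lower, with a median of -0.13, in a fit that called 19.4% of all genes higher and 9.4% lower. Both fits shared the upd-negative cells, and the test of their difference is the comparison with and without upd2 above.

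**Figure D4:**
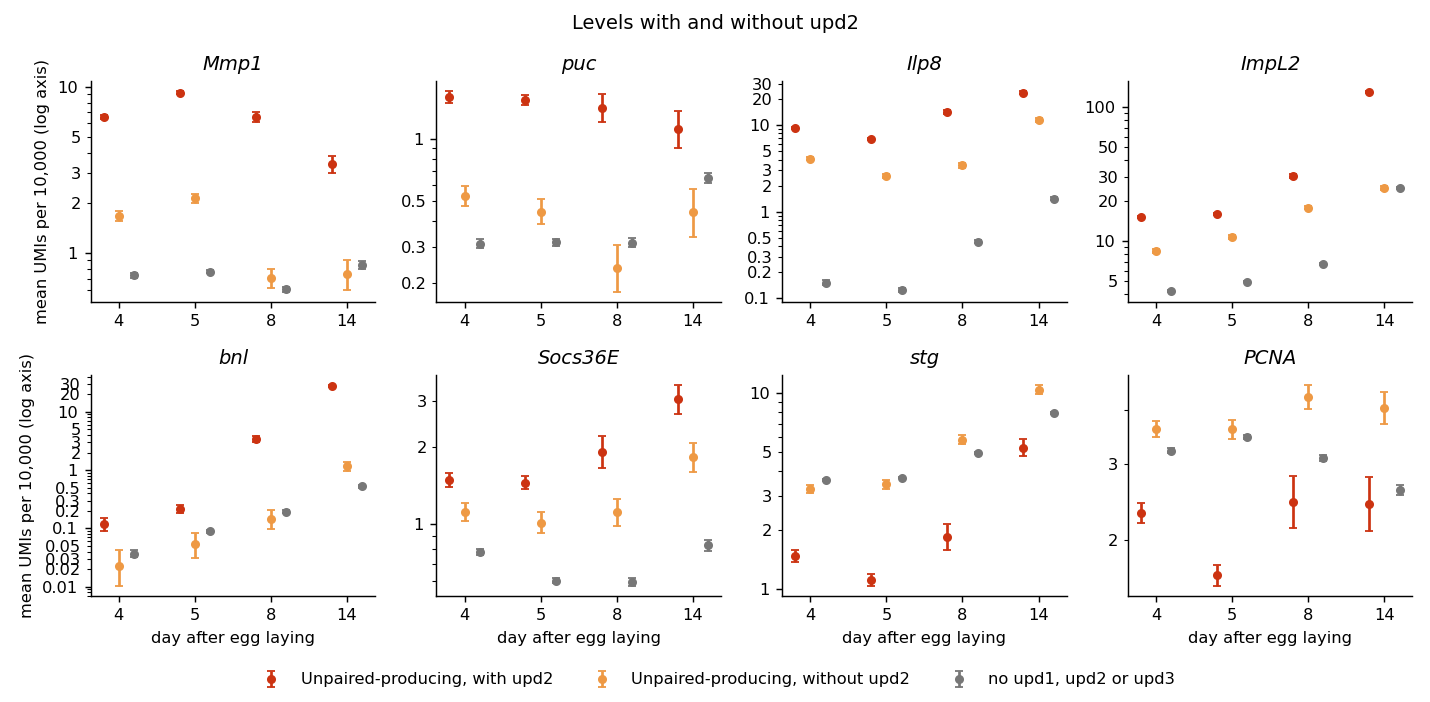
Mean level in UMIs per 10000 (log axis) of 8 genes at each age in Unpaired-producing cells with upd2, in those without it and in cells with none of the 3 ligands, with 95% Poisson intervals. Mmp1 was at 3.40 to 9.18 with upd2 and at 0.704 to 2.13 without it, and stg was lowest with upd2 in each library.

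Proliferation genes were lower in the cells with upd2 than in members without it. All 14 S phase genes tested fell, with a median of -0.88, and 16 of 17 G2/M genes fell, with a median of -0.69. Of all genes, 21.8% were called lower. stg, the Cdc25 phosphatase that opens mitosis, had 1.48, 1.12, 1.85 and 5.27 per 10000 in cells with upd2, against 3.25, 3.42, 5.79 and 10.4 in cells without it (-1.32 ± 0.13, adjusted p = 0.00226). Upd-negative cells had 3.61, 3.71, 4.93 and 7.93, so cells with upd2 were the lowest of the 3 classes in each library. The cyclin gene CycE fell by 1.02 ± 0.12 and the replication clamp gene PCNA by 0.81 ± 0.10 (adjusted p = 0.00289 for both), and the helicase gene Mcm5 fell by 1.04 ± 0.15 (adjusted p = 0.00373). PCNA had 2.31, 1.66, 2.45 and 2.43 with upd2 and 3.61, 3.61, 4.29 and 4.04 without it. Upd-negative cells, at 3.22, 3.46, 3.10 and 2.61, lay between the 2 classes. When all members were set against upd-negative cells, 1 of 14 S phase genes was called lower, against 6.95% of all genes. The G2/M gene that was not called was trbl, an inhibitor of stg, at 0.44 ± 0.32 (adjusted p = 0.3). Myc fell by 0.67 ± 0.10 and the growth factor receptor gene Egfr by 0.64 ± 0.09 (adjusted p = 0.00504 and 0.00441). All 14 S phase genes were also called lower without day 4, without day 5 and without day 8, and all 13 tested without day 14.

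Cytoskeleton genes were higher, with 12 of 13 called and a median of 0.81, in a fit that called 15.3% of all genes higher. The actin-linked adaptor gene cindr rose by 1.29 ± 0.12, the fascin gene sn by 1.20 ± 0.18 and the filamin gene cher by 0.88 ± 0.19 (adjusted p = 0.00226, 0.005 and 0.0131). The apoptosis genes hid and Drice rose by 0.95 ± 0.18 and 0.57 ± 0.10 (adjusted p = 0.00883 and 0.0067), 2 of the 4 cell death genes tested. All 3 genes tested of the integrated stress response rose, and the NADPH oxidase maturation gene mol rose by 1.25 ± 0.13 (adjusted p = 0.00266). GstD1 had 51.3, 63.5, 60.9 and 48.9 against 29.9, 32.4, 18.5 and 14.7 (1.30 ± 0.17, adjusted p = 0.00323).

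JAK/STAT readouts followed in part. Socs36E had 1.49, 1.45, 1.91 and 3.06 per 10000 in cells with upd2, against 1.11, 1.01, 1.11 and 1.82 in cells without it (0.60 ± 0.10, adjusted p = 0.00571). Cells without upd2 were in turn above the 0.597 to 0.826 of upd-negative cells in each library. vir-1 rose by 2.62 ± 0.30 and Socs44A by 0.74 ± 0.18, and chinmo fell by 0.65 ± 0.08 (adjusted p = 0.00281, 0.0184 and 0.00289). dome and Stat92E were not called, and their list had a median of -0.31.

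High levels of bnl and ImpL3 in cells with upd2 were found in the late libraries. bnl had 27.5 per 10000 in cells with upd2, against 1.16 in cells without it, at day 14, and 3.46 against 0.144 at day 8. At days 4 and 5 the values were 0.117 against 0.0227 and 0.215 against 0.0529, so the ratio was wide in each library while the level was high only late (2.81 ± 0.59, adjusted p = 0.0124). ImpL2 had 129 against 24.7 at day 14, and 15.1 against 8.42 at day 4 (1.15 ± 0.28, adjusted p = 0.0203). ImpL3 had 101 against 10.99 at day 14 and 30.8 against 6.46 at day 8, but 0.380 against 0.554 at day 5 (1.65 ± 0.53, adjusted p = 0.0467). In the clusters, 74.7%, 80.0% and 51.3% of the cells with upd2 at days 4, 5 and 8 were in the cluster led by CG13117 or its like, but 13.5% at day 14, when 59.5% were in the cluster led by bnl and ImpL3. The levels of bnl and ImpL3 at day 14 are part of what defined that cluster. Of cells without upd2, 18.5%, 17.4% and 2.52% were in the CG13117 cluster or its like at days 4, 5 and 8. In the bnl and ImpL3 cluster it was 10.6% at day 14. CG13117, mtg, Drip, scaf, Pvf1, Tdc1, CG3168 and CG4267, all higher with upd2, were among the leading genes of the CG13117 cluster at days 4 and 5. Traits of cells with upd2 and traits of these clusters can therefore not be told apart here.

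Among the largest differences were further genes with the same sign in each library. CG13117, CG11426, Tdc1, CG3168, mtg, CG4267, CG42675, CG9192, the tubulin-associated gene ringer and the aquaporin gene Drip rose by 2.40 to 3.699. The BMP ligand gene dpp rose by 1.15 ± 0.15 (adjusted p = 0.00317) and four-jointed (fj), a Hippo pathway target, by 1.28 ± 0.17 (adjusted p = 0.00323). Neither list moved one way, in a fit that called 15.3% of all genes higher and 21.8% lower. Of 10 BMP and activin pathway genes dpp and cv-2 were higher and salm, put and sog were lower, and of 6 Hippo pathway targets fj and crb were higher and CycE and Myc lower. The lower genes included CG7059, the amino acid transporter gene mnd, the Frizzled receptor gene fz and the transcription factor genes Sox15 and Dr, which fell by 1.22 to 1.59. Tom, a Bearded family gene of the Notch pathway, fell by 1.37 ± 0.17 and the cell surface gene Ama by 1.31 ± 0.18 (adjusted p = 0.00293 and 0.00363). The globin gene glob1, CG3902, CG42806 and the growth factor gene miple1 completed the 12, at -1.14 to -1.26.

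The split by upd3 gave fewer differences. There were 282, 287, 76 and 41 cells with upd3 and 119, 164, 82 and 62 without it. Of 3822 genes, 171 were higher (4.47%) and 60 lower (1.57%) in cells with upd3, and 141 and 114 with ribosomal protein genes left out of the scaling. The counts were 7 and 0 without day 4, 19 and 1 (mnd) without day 5, 48 and 13 without day 8, and 367 and 242 without day 14. Ilp8 had 7.63, 6.34, 8.60 and 21.5 per 10000 in cells with upd3, against 3.96, 2.49, 3.70 and 11.9 in cells without it (1.08 ± 0.08, adjusted p = 0.00123). Mmp1 had 4.88, 7.07, 3.49 and 2.17 against 1.88, 4.22, 0.908 and 1.39 (1.15 ± 0.19, adjusted p = 0.0175), and 7 of 10 JNK and wound targets were called higher. Cells with upd3 were deeper in each library, with medians of 33409 against 24659 UMIs at day 4, 30566 against 19052 at day 5, 22217 against 19095 at day 8 and 20806 against 18544 at day 14. Most calls were lost when depth was held closer, in fits that also had fewer cells with upd3. The window of 15000 to 30000 UMIs kept 95 cells with upd3 and 55 without it at day 4, and 113 and 87 at day 5. Of the calls of the full fit, 225 of the 226 tested there kept their direction, in cells that had also entered the full fit. The parts of depth and of cell number in the loss were not tested. Among cells of 15000 to 30000 UMIs 18 genes were higher (0.473%) and 2 lower (0.0526%), with 2 of the 10 JNK and wound targets called, and after thinning 26 were higher (0.679%) and 7 lower (0.183%), with 3 of the 10 called. Among cells of 15000 to 30000 UMIs Ilp8 was still called, at 1.20 (adjusted p = 0.00235), and Mmp1 was not, at 1.16 (adjusted p = 0.0833). The named genes were Tdc1, CG3168, b, CG1299, scaf and CG17124, higher by 1.36 to 1.58, and mnd, Sema5c, CG7059, Tom, bnb and CG6287, lower by -0.67 to -0.81. Of these 12, only CG3168 and mnd were still called among cells of 15000 to 30000 UMIs, where b was not tested. Among members without upd2, where upd3 could be set against its absence alone, 6 genes were higher (CG17124, CG1146, CG13117, Pax, Tsp42El and CG9691), none was lower and 361 had an unadjusted p under 0.05 (limma). The difference between the split by upd2 and the split by upd3 was not tested.

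Finally, levels were followed across the summed ligand level of a cell, from 0 to 4 or more per 10000. Mmp1 was 0.730, 1.63, 2.48, 4.01 and 8.75 at day 4, and 0.769, 2.35, 4.35, 6.83 and 10.9 at day 5, in the classes 0, above 0 and below 1, 1 to 2, 2 to 4 and 4 or more. It was 0.605, 0.898, 1.22, 2.48 and 11.997 at day 8, where the top class held 8 cells, and 0.845, 0.894, 1.24, 1.84 and 3.69 at day 14, where it held 12. The cells above 0 and below 1 had higher means than upd-negative cells in each library, by a small margin at day 14. Ilp8 in those cells was 0.966, 0.816, 2.54 and 7.34 at days 4, 5, 8 and 14, between the levels of upd-negative cells and of members. At day 8 Ilp8 was 5.50 at 1 to 2 per 10000 and 4.67 at 2 to 4, so its climb was not even. Ilp8 reached 15.1, 11.5, 21.6 and 32.4 in the top class. Socs36E was 0.777, 0.602, 0.597 and 0.826 with none of the ligands and 1.65, 1.54, 3.30 and 3.97 in the top class. stg took its lowest value in the top class of each library, at 0.987, 1.19, 1.42 and 4.66. Below the top class it did not fall evenly in the late libraries. It was 4.93, 5.70, 5.15 and 4.68 at day 8, and 7.93, 8.54, 9.61 and 8.01 at day 14. The classes also differed in depth, with medians of 21244 UMIs at 0 and 32950 in the top class at day 4, and 19008 and 21702 at day 14.

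**Figure D5:**
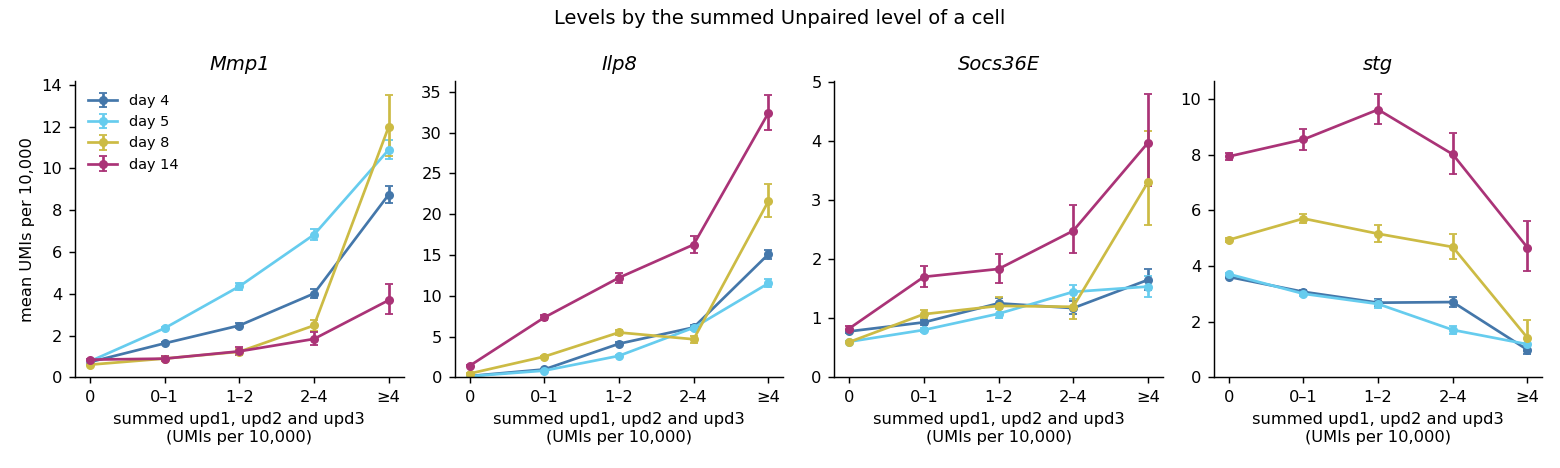
Mean level in UMIs per 10000 of Mmp1, Ilp8, Socs36E and stg in cells grouped by the summed level of upd1, upd2 and upd3, with 1 line per age and 95% Poisson intervals. The top class held 65, 64, 8 and 12 cells at days 4, 5, 8 and 14; Mmp1, Ilp8 and Socs36E were highest there in each library and stg was lowest.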

How the data were processed

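The authors counted UMIs with Cell Ranger and normalized them with Seurat. Each deposited value is a natural log, ln(1 + UMIs per 10000). No source used here gives their build or filters on cells. UMIs were recovered as whole numbers (100% of values within 0.01). Means over cells per library were compared by limma 3.58.1 under R 4.3.3 (moderated test with a mean trend) on log2(mean + 0.05) with library as block, for genes listed in all 4 files with a mean of at least 0.2. Named genes were the 12 largest calls each way (6 for upd3) with the same sign in every library, and list members. Members and lists were chosen with earlier results of these data known. In simulated data for the comparison with upd-negative cells, 100% of 1.5-fold changes were called and 0.305% of 3605 unchanged genes. These shares hold for the simulated spread only. In the data puc and bnl were not called, at 0.98 ± 0.28 and 1.79 ± 0.66, so a gene not called may still differ. Cells were clustered with scanpy 1.11.5 (2000 variable genes, 30 components, 15 neighbours, resolution 0.5). Of 107 named genes, all found in the annotation, 43 overlap a gene on the other strand, Ilp8 and Ets21C among them, and are uncertain since counting by strand is not stated. No doublet caller was run. The 4 libraries are the only replicates, each from discs of 1 age. P-values thus measure how evenly the difference within a library held across ages and preparations. Alternatives covered pseudocount, filter, scaling, depth, threshold, reference cells and libraries.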

Additional observations from a re-analysis of the deposited data

Results flagged for a closer look

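A few genes moved one way in the Unpaired-producing cells of days 4 and 5 and the other way in those of days 8 and 14, by at least 0.5 on the log2 scale in each library. The difference between ages was not tested. Thor, a translation inhibitor of the insulin pathway, differed from upd-negative cells by -1.09 and -1.01 at days 4 and 5, and by 1.48 and 1.30 at days 8 and 14. The transcription factor gene Sox15 differed by -0.98 and -0.70, and then by 1.24 and 1.45. The glycolysis gene Pglym78 differed by -0.63 and -0.63, and then by 0.50 and 1.16. E(spl)malpha-BFM, a Notch target, went the other way, at 1.35 and 1.40 early and -1.58 and -1.58 late. Between members with and without upd2, the wing gene vg differed by -0.87 and -0.89 at days 4 and 5, and by 0.52 and 0.66 at days 8 and 14. Over all genes, 15 of 3814 met this description in the comparison with upd-negative cells, 2 of 3820 in that by upd2 and 1 of 3822 in that by upd3.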

How the results depend on the processing

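Each age had a single library, so its age cannot be told apart from its preparation. In the comparison with upd-negative cells, the higher and lower counts were 186 and 114 with a filter at a mean of 1, 166 and 157 after thinning, 224 and 401 with ribosomal protein genes left out of the scaling, 134 and 163 against standardised cells, 519 and 594 with only members with upd2, and 735 and 356 with only members without upd2. Leaving out a library gave 0 to 486 higher and 0 to 241 lower. GstD1 turned to -0.11 with only members without upd2. By upd2, counts were 227 and 316 with the stricter filter, 1386 lower without ribosomal scaling, and 498, 547 and 551 lower after thinning, among cells with upd3 and at 15000 to 30000 UMIs. Leaving out a library gave 321 to 706 higher and 311 to 987 lower. By upd3, counts were 93 and 19 with no filter, 80 higher with the stricter filter, 114 lower without ribosomal scaling, 26 and 7 after thinning, 6 and 0 without upd2, 61 and 3 below a summed level of 2, 18 and 2 at 15000 to 30000 UMIs, and 32 lower on mean log values. Leaving out a library gave 7 to 367 higher and 0 to 242 lower.

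The library served as the replicate block. Without the replicate block, counts were 0 and 0 against upd-negative cells (446 genes at an unadjusted p under 0.05, limma), 239 and 169 by upd2, and 0 and 0 by upd3 (163 genes). The causes of these changes were not tested. The comparison of upd3 cells with upd1 cells was not run, with 16, 32, 15 and 9 cells against 118, 155, 79 and 61.

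At days 4, 5, 8 and 14 the share of members was 5.15%, 3.11%, 1.80% and 3.69% at a threshold of 2, and 29.3%, 20.6%, 16.4% and 19.3% with any UMI. Thinned shares were 9.30%, 4.32% and 7.30% at days 4, 8 and 14, and thinned shares with at least 2 ligands were 60.8%, 60.4% and 42.5% at days 4, 5 and 8. From pooled UMIs, upd1 was 0.260, 0.166 and 0.122 per 10000 at days 4, 5 and 8, upd2 was 0.0778, 0.0750 and 0.0294, and upd3 was 0.108 and 0.0752 at days 4 and 5. From mean log values taken back, the 4 ages had 0.151, 0.0936, 0.0786 and 0.106 for upd1, 0.0393, 0.0341, 0.0135 and 0.0362 for upd2, and 0.0638, 0.0407, 0.0247 and 0.0359 for upd3. After thinning, upd1 was 0.230 and 0.147 at days 4 and 5, and upd2 and upd3 were 0.0574 and 0.0621 at day 5.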
